A study of Xenopus laevis with 32 samples.

Results

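The genes described here encode the proteins of the mitochondrial ribosome in the frog Xenopus laevis. They were taken as every gene whose name starts with mrpl or mrps followed by a digit, which gave 88 gene names for 70 symbols. The frog genome is allotetraploid, and the suffixes .L and .S name the copies on the long and short chromosome of a pair, called homeologs. A polysome share was listed for 20 of these genes among 6497, an RNA level for 79 among 11765 names listed once, and poly(A) sites for 85 among 13344. All 3 measures were listed for 20 genes, and 9 had poly(A) sites only. Grouped by the subunit their mammalian counterparts belong to, or by name for mrps36.S, 56 names were of the large subunit and 32 of the small.

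Mitochondrial ribosomes translate the few messages that mitochondrial DNA encodes, which specify core subunits of the respiratory chain and the ATP synthase. Their proteins are encoded in the nucleus, translated on cytoplasmic ribosomes and imported, so a polysome share here describes loading with cytoplasmic ribosomes. Some members have a counterpart in bacterial ribosomes, and others were added during mitochondrial evolution. The growing Xenopus oocyte stores a very large pool of mitochondria, which the early embryo inherits.

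Oocytes were studied at 5 stages of meiotic maturation: stage VI, arrested and without progesterone; PG90, 90 minutes after progesterone, the steroid that triggers maturation; meiosis I (MI); interkinesis, between the divisions; and meiosis II (MII). The strain, genotype and age of the females are not given in the sources used here. Polyadenylated RNA was selected with an oligo-dT kit from free mRNP, monosome and polysome fractions of sucrose gradients, giving 6 libraries per stage, and 2 lanes of PAS-seq read the 3′ ends of stage VI RNA. Each stage has 2 values per gene, in column sets named x and y. No label says whether these came from separate females, so p-values measure only the spread between the columns, which may be technical.

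The sequencing depth behind shares and levels is unknown, and the PAS table holds 656192 reads at 41982 sites. The unit of the level is not stated, and neither is a correction for transcript length, so levels were compared within a gene and within a column set. Levels in set x were mostly larger than in set y, with medians over the 79 members of 59.3 and 8.97 at stage VI. Of the oocyte marker list, 13 rows of 11 symbols were in the level table, while none of the follicle or blood cell markers was listed there. The level table lists only values above 1, so this is not evidence of absence. In these bulk samples fewer cells of a type and less RNA per cell cannot be told apart, and in oligo-dT selected RNA neither can fewer transcripts and shorter poly(A) tails.

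Mitoribosomal protein mRNAs were moderately polysomal in resting oocytes. The polysome share is the authors' fraction of a gene's RNA in polysomes, of a total that is not stated. Gene means at stage VI lay between 0.233 and 0.5002 with a median of 0.381 over the 20 members, and the median over all genes was 0.328. The highest were mrpl40.S, a large-subunit protein without bacterial counterpart, mrps6.S, mrps12.S and mrpl35.L, whose shares in the 2 columns ranged from 0.387 to 0.578. The lowest were mrps15.L, mrpl41.L, mrpl54.S and mrpl42.S, between 0.166 and 0.341. The 2 columns of a stage differed by a median SD of 0.0459 at stage VI. The columns of the 4 highest and the 4 lowest members did not overlap. These members were picked as the extremes of the same columns, so their separation follows largely from the choice.

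**Figure D1:**
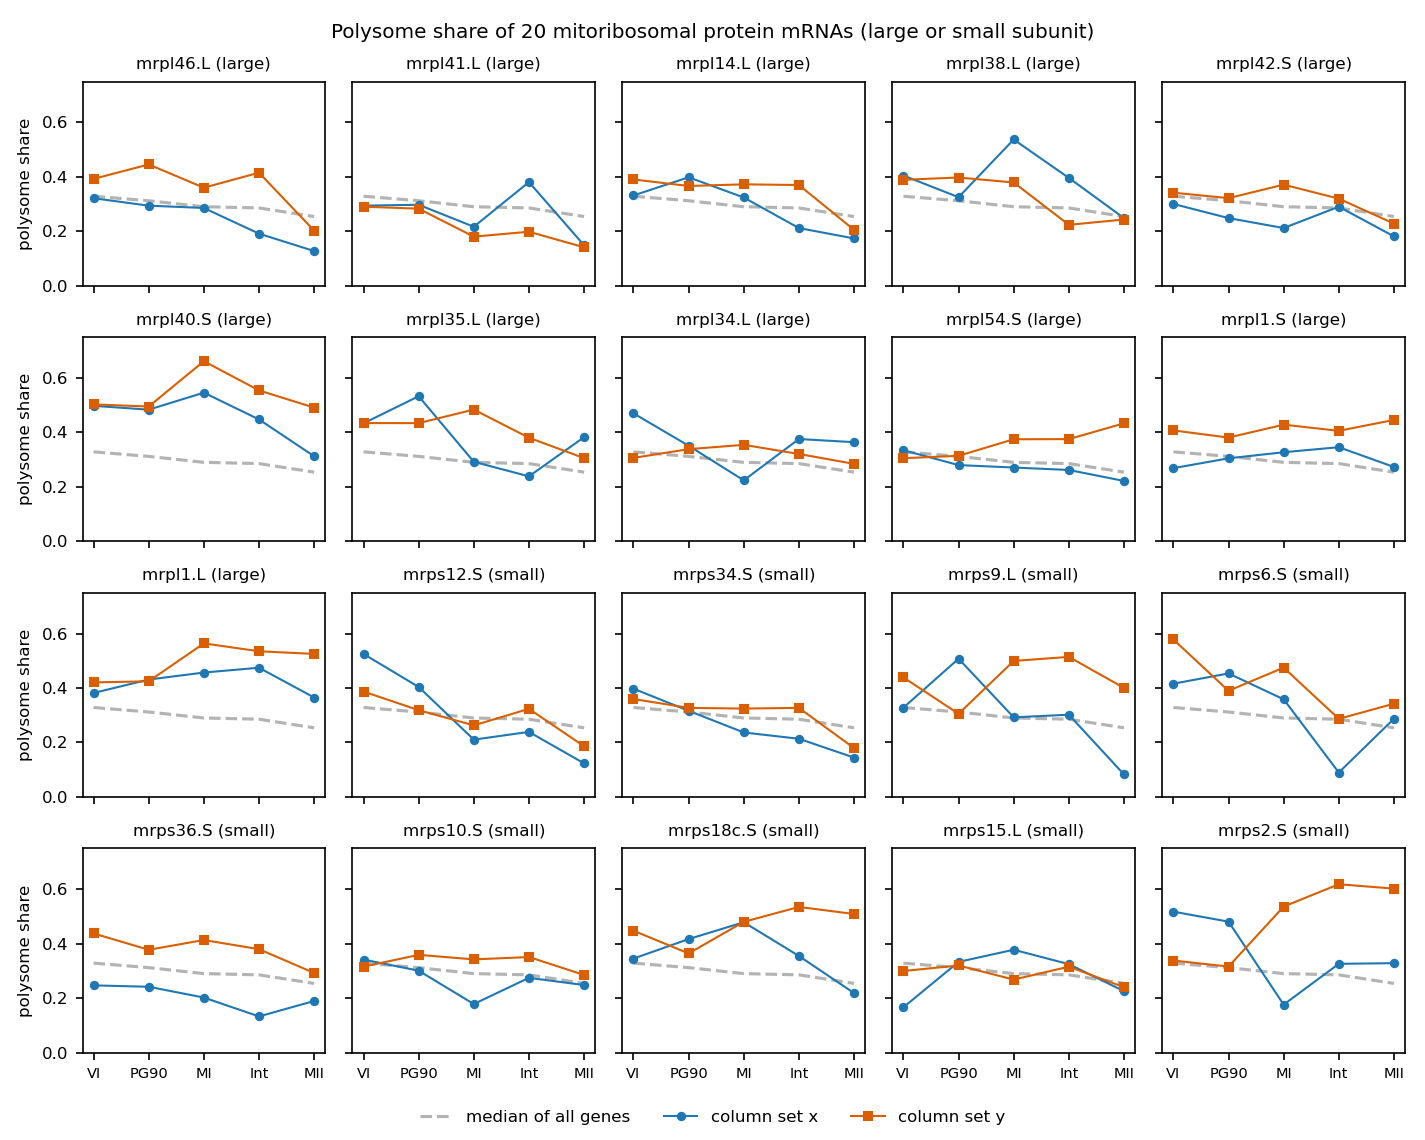
Polysome share (vertical axis, a fraction) of the 20 listed members at 5 stages (VI, PG90, MI, interkinesis as Int, and MII), with circles for column set x, squares for column set y and a dashed line for the median of all 6497 genes. In mrps12.S and mrps34.S both columns were lower at MII than both at stage VI, while in mrps2.S and mrpl54.S the column sets moved apart.

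The members' shares were lower at later stages, as were those of most genes. As a median of gene means, the 20 members had shares of 0.381 (stage VI), 0.361 (PG90), 0.335 (MI), 0.311 (interkinesis) and 0.256 (MII). Over all genes the corresponding medians were 0.328, 0.312, 0.290, 0.285 and 0.254. The members started above all genes and ended close to them. Changes were tested as the difference in log2 odds, log2(share / (1 - share)), with limma-trend over all genes and Benjamini-Hochberg adjustment. The median change at MII was -0.65 for the members, with 16 of 20 lower, and -0.57 for all genes. In both column sets 14 members were lower, 70.0%, against 62.2% of all genes. Centring each column on its median moved the members' median to -0.11.

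In MII oocytes 2 of the 20 members fell past an adjusted p of 0.05, mrps12.S and mrps34.S, and none rose. Among all genes 3.82% fell and 0.554% rose by the same rule. The call of mrps34.S did not hold with any column of these stages left out, and that of mrps12.S held only without the y column of MII. Such a fit leaves 1 column in a stage, and in each fewer genes of the whole table were called. The loss is therefore not particular to these members. The members' median change in these fits lay between -1.10 and -0.48. At an unadjusted p under 0.05, 6 of the 20 members were lower and 0 higher, where 28.7% of all genes were lower and 4.05% higher. Both columns at MII lay below both at stage VI for 11 members, 55.0%, where the background was 53.5% of all genes. No member lay above in this way, against 9.37% of all genes. The members' decline thus had about the frequency found over the whole table.

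mrps12 encodes the conserved protein of the decoding centre in the small subunit, where codon and anticodon meet. Over stage VI, PG90, MI, interkinesis and MII, mrps12.S had polysome shares of 0.525, 0.404, 0.210, 0.239 and 0.123 in column set x and 0.387, 0.319, 0.263, 0.323 and 0.186 in column set y. It was the most polysomal small-subunit mRNA in set x at stage VI and among the least at MII, and the groups did not overlap. The change at MII was -2.22 (SE 0.41, adjusted p = 0.0388) in log2 odds by limma. Quantile normalization put its adjusted p in limma at 0.0554. Leaving out the x or y column of stage VI or the x column of MII, where the call did not hold, gave changes of -1.82, -2.63 and -1.87.

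mrps34 encodes a small-subunit protein without bacterial counterpart. The shares of mrps34.S were 0.398, 0.316, 0.237, 0.214 and 0.144 in set x over the 5 stages and 0.360, 0.327, 0.324, 0.327 and 0.179 in set y. In set x the share was lower at each later stage than at the one before, while in set y it changed little before MII. Its change at MII was -1.66 (SE 0.37, adjusted p = 0.0436). With quantile normalization the adjusted p in limma was 0.0734, and with median-centred columns 0.0794. With any 1 of the 4 columns of these stages left out the call did not hold, and the change lay between -1.85 and -1.48.

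Among members with both MII columns below both stage VI columns, 3 large-subunit mRNAs followed in size without passing the threshold. mrpl46.L, whose protein is part of the central protuberance in mammals, had shares of 0.127 and 0.202 at MII, against 0.321 and 0.392 at stage VI, a change of -1.52 (SE 0.53, adjusted p = 0.0838). mrpl41.L, which encodes another protein added in mitochondria, had 0.148 and 0.141 at MII, against 0.294 and 0.290 at stage VI, a change of -1.29 (SE 0.39, adjusted p = 0.0646). For mrpl14.L, the counterpart of a universal subunit-interface protein, the shares were 0.173 and 0.205 at MII, against 0.331 and 0.390 at stage VI, a change of -1.28 (SE 0.40, adjusted p = 0.0692). In each, the x and y columns gave similar sizes. Fitted on the 4 columns of these stages alone, mrpl46.L and mrpl41.L passed, with adjusted p-values of 0.0410 and 0.0483, and mrpl14.L had 0.0532. None passed in limma with quantile normalization, with adjusted p-values of 0.347, 0.506 and 0.273 in the same order. With median-centred columns these were 0.284, 0.384 and 0.294. The changes were smaller, at -1.01, -0.56 and -0.80 with quantile normalization and -0.98, -0.75 and -0.74 with median-centring.

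The other small-subunit mRNAs were less uniform. mrps9.L had shares of 0.0824 and 0.400 at MII, against 0.328 and 0.439 at stage VI, a change of -1.33 (SE 0.83, adjusted p = 0.268). Its estimate was larger than those of mrpl41.L and mrpl14.L, but nearly all of it came from column set x and the groups overlapped. In mrps6.S the lowest value was at interkinesis, with 0.0894 and 0.287 at interkinesis, against 0.416 and 0.578 at stage VI, and at MII it had 0.287 and 0.342. Shares of mrps2.S were 0.328 and 0.602 at MII, against 0.518 and 0.338 at stage VI, lower in set x and higher in set y. The columns of mrps2.S disagreed in direction from MI on, and no statement on its direction can be made.

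mrps10.S had 0.248 and 0.285 at MII, against 0.342 and 0.315 at stage VI, and mrps36.S had 0.189 and 0.292 at MII, against 0.247 and 0.438 at stage VI. The product of mrps36, first described as a ribosomal protein, is now assigned to the 2-oxoglutarate dehydrogenase complex in mammals and yeast. Here mrps36.S was still counted with the small subunit and with the members without bacterial counterpart. mrps15.L was higher in set x and lower in set y, with 0.225 and 0.240 at MII, against 0.166 and 0.299 at stage VI. mrps18c.S was also split between the sets, with 0.218 and 0.509 at MII, against 0.345 and 0.448 at stage VI.

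Among the remaining large-subunit mRNAs, mrpl40.S, mrpl38.L, mrpl42.S, mrpl35.L and mrpl34.L had MII changes between -1.02 and -0.39, none past the threshold. mrpl40.S was the most polysomal member on average at stage VI, with 0.312 and 0.491 at MII, against 0.498 and 0.503 at stage VI. Both mrpl1 copies, which encode the protein of the mobile L1 stalk, did not pass the threshold: mrpl1.L had 0.365 and 0.525 at MII, against 0.382 and 0.421 at stage VI, and mrpl1.S had 0.273 and 0.446 at MII, against 0.269 and 0.407 at stage VI. mrpl1.L and mrpl1.S were the only homeolog pair with shares for both, and the L copy was higher in 10 of 10 columns, by 0.0992 on average and by 0.0133 to 0.136. This pair was chosen as the only one available, and the reads of near-identical copies could be split between them in the authors' counting.

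The 12 members with a bacterial counterpart had a median change of -0.41 at MII with 8 lower, and the 8 without had -0.95 with 8 lower. These last include mrpl54.S, with a change of only -0.010, from -0.82 in set x and 0.80 in set y. Of 3304 genes with both share and level, 913 were lower in both and 1615 in share only. By subunit the medians were -0.60 for 11 large-subunit and -0.70 for 9 small-subunit members. The difference between these classes was not tested.

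At PG90, MI and interkinesis no member passed the threshold, and 0% of all genes did. By an unadjusted p under 0.05 in limma, 0, 1 and 2 members were lower, where 0.847%, 9.62% and 12.6% of all genes were. None was higher, where 0.0616%, 2.06% and 3.39% of all genes were. The members' median changes were -0.047 (PG90), -0.23 (MI) and -0.11 (interkinesis), where all genes had -0.12, -0.29 and -0.33. With median-centred columns these medians turned positive, to 0.065, 0.034 and 0.21, so the sign of the members' median before MII depends on the scaling. It also differed between the column sets, at -0.36 in x and 0.15 in y for MI and at -0.48 in x and 0.044 in y for interkinesis.

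RNA levels of most members were slightly lower soon after progesterone. At PG90, 44 of 79 members were lower than at stage VI in both column sets, 55.7%, while 24.4% of all genes were. Only 3 members were higher in both, 3.80%, against 31.7% of all genes. The median change was -0.27 on the log2 scale for the members and 0.033 for all genes. No member passed an adjusted p of 0.05 in limma-trend with column set as a term, and 0.00850% of all genes did in either direction. At an unadjusted p under 0.05, 7 members were lower and 2 higher, 8.86% and 2.53%, where 1.64% of all genes were lower and 1.63% higher. The shift was shared by both subunits, with 27 of 50 large-subunit and 17 of 29 small-subunit members lower in both sets. Other lists were lower too: cytoplasmic ribosomal protein genes had a median change of -0.41 with 107 of 112 lower, and respiratory chain genes -0.39 with 102 of 116 lower, while 66 of the 79 members were lower by the estimate over both sets.

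**Figure D2:**
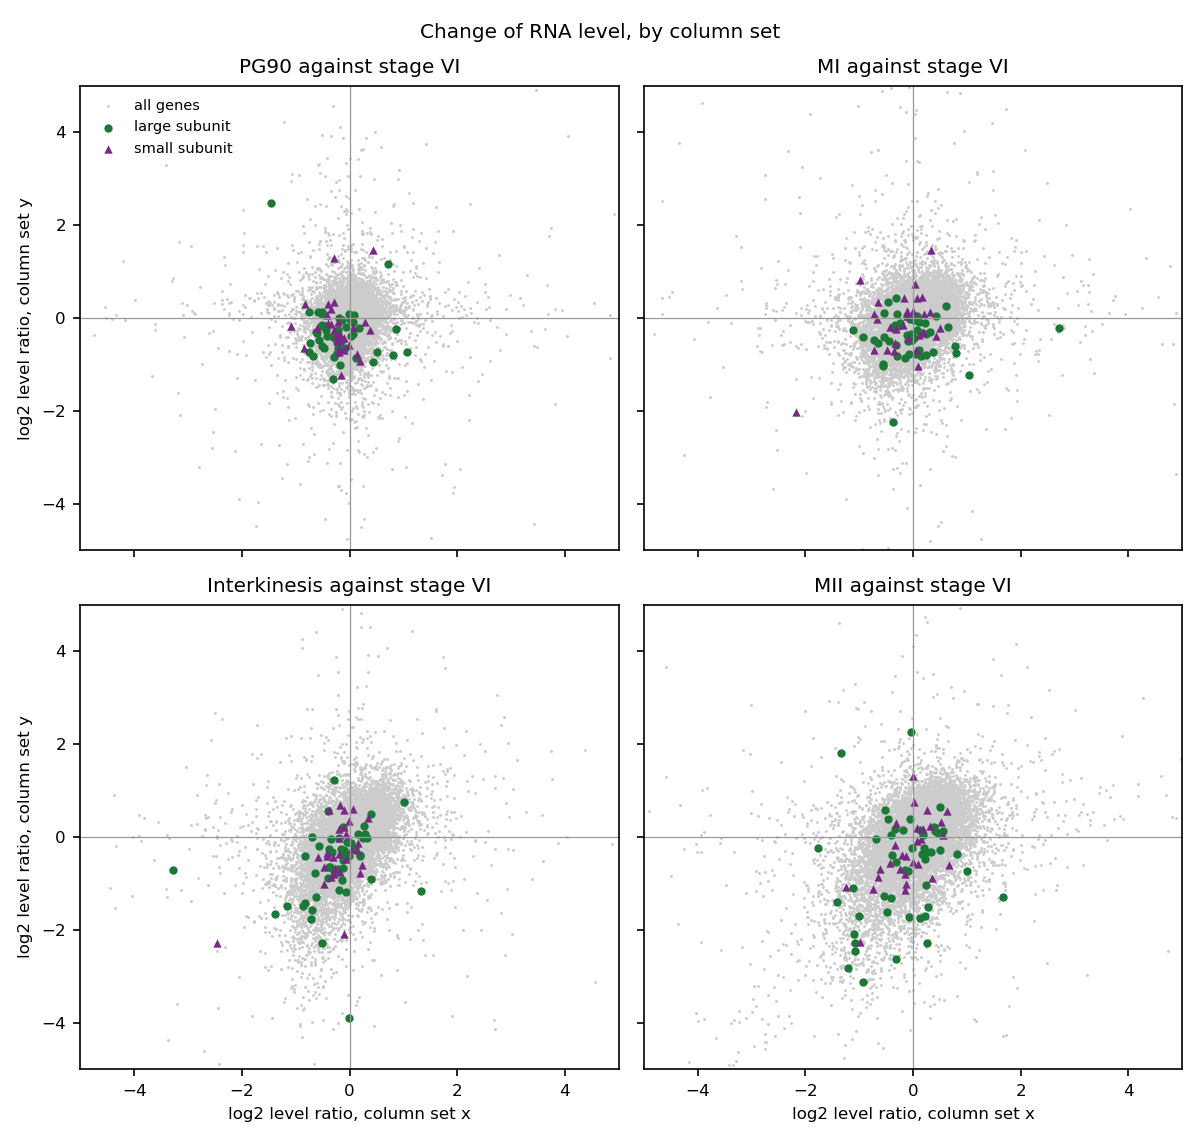
Log2 ratio of RNA level at each later stage to stage VI in column set x (horizontal) and column set y (vertical); grey points are all genes, green circles large-subunit and purple triangles small-subunit members. At PG90 most members lie below 0 in both sets, and at MII a tail of members extends to lower values. mrpl21.L lies beyond the axis limit of 5 at PG90, MI and MII and, like other points past it, is not drawn.

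The share of lower members varied over the later stages. Members lower in both sets numbered 33 (MI), 49 (interkinesis) and 33 (MII), where the background was 29.4%, 33.6% and 29.7% of all genes. Those higher in both numbered 11, 7 and 16, where all genes had 34.9%, 37.7% and 38.4%. Median changes of the members were -0.19 (MI), -0.28 (interkinesis) and -0.25 (MII), while all genes stayed between 0.023 and 0.068. At MII the median was -0.069 in set x and -0.40 in set y, so most of it came from set y. The MII median was -0.014 over the 35 members that passed a filter on low levels and -0.12 without the y column of MII. For MI it was -0.094 with that filter, and -0.30 or -0.050 without the x or y column of stage VI. At MI and interkinesis no member passed the threshold, with 0.0170% and 0% of all genes called. At an unadjusted p under 0.05, 4 members were lower and 1 higher at MI, 5.06% and 1.27%, where 5.47% of all genes were lower and 8.97% higher. At interkinesis 16 were lower and 1 higher, 20.3% and 1.27%, where 11.0% of all genes were lower and 12.7% higher. At interkinesis 3 members, mrpl52.S, mrpl57.S and mrps18b.L, were at least 2-fold lower in both sets, 3.80% against 1.43% of all genes, and none was 2-fold higher, against 0.629%.

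13 members were lower than at stage VI in both column sets at each of the 4 later stages, 16.5%, against 7.59% of all genes. They were mrpl9.L, mrpl10.S, mrpl14.L, mrpl30.S, mrpl34.L, mrpl36.L, mrpl57.S and mrps18a.L of the large subunit, and mrps12.L, mrps16.L, mrps17.L, mrps25.S and mrps34.S of the small. A single member, mrps18c.S, was higher in both sets at each later stage, 1.27% against 13.3% of all genes. All 4 comparisons use the same stage VI columns, so neither count rests on 4 independent observations.

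At MII a group of members had lower levels. 8 of 79 were at least 2-fold lower than at stage VI in both column sets, 10.1% against 3.37% of all genes. None was at least 2-fold higher, against 0.977%. By the same rule 25 of 112 cytoplasmic ribosomal protein rows were lower and 0 higher, and 20 of 116 respiratory chain rows were lower and 3 higher. In set x the 8 members were at 0.376 to 0.499 of their stage VI level. With a pseudocount of 1 or with median-centred columns 6 members were at least 2-fold lower. Of the 8, 7 belong to the large subunit: mrpl10.S, mrpl52.S, mrpl41.L, mrpl14.L, mrpl53.L, mrpl34.L and mrps18a.L, whose product sits in the large subunit despite its name. The eighth was mrps12.L. Of the 79 members with a level, 50 were of the large subunit. Median level changes at MII were -0.16 for these and -0.25 for the 29 of the small subunit, a difference that was not tested. In limma 2 members fell past the threshold, mrpl34.L and mrps12.L, and 0 rose, where 1.33% of all genes fell and 0.612% rose. Neither call held with any 1 column of these stages left out. Such a fit leaves 1 column in a stage, and in each fewer genes of the whole table were called. The loss is therefore not particular to these members. The members' median change in these fits lay between -0.34 and -0.12. At an unadjusted p under 0.05, 19 members were lower and 1 higher, 24.1% and 1.27%, where 13.7% of all genes were lower and 16.7% higher.

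mrpl34.L, the counterpart of a small bacterial large-subunit protein, had levels of 149, 129, 101, 94.9 and 74.3 in set x from stage VI to MII and 22.2, 18.5, 11.3, 12.9 and 6.84 in set y. The MII level was the lowest of the 5 in both sets. Its change at MII was -1.35 (SE 0.21, adjusted p = 0.0475), on the log2 scale. mrps12.L had levels of 20.7, 16.2, 16.6, 14.98 and 8.76 in set x and 5.52, 5.04, 4.68, 3.54 and 2.62 in set y, a change of -1.16 (SE 0.17, adjusted p = 0.0475) at MII. Here too both sets were lowest at MII, but the levels in set y were low, where only values above 1 were listed. The filter on low levels left mrps12.L out. Without the column set term neither passed the threshold in limma, with an adjusted p of 0.99999 for each. None of the 11765 genes passed in that fit. It leaves the difference in scale between the sets in the spread, so it cannot decide on these 2 genes. With 1 of the 4 columns of these stages left out, the changes lay between -1.62 and -1.08 for mrpl34.L and between -1.22 and -1.09 for mrps12.L.

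The largest estimates did not pass the threshold, and in them the column sets differed in size. mrpl10.S, whose protein anchors the stalk that recruits translation factors, had levels of 356, 307, 287, 201 and 154 in set x and 54.9, 35.0, 37.0, 20.5 and 7.75 in set y, with an MII change of -2.02 (SE 0.37, adjusted p = 0.0501). Both sets were lower at every later stage, and set y more so. mrpl57.S had 56.2 and 1.39 at MII, against 106 and 12.1 at stage VI, a change of -2.02 (SE 0.54, adjusted p = 0.0748), with set x short of 2-fold. mrpl52.S had 23.7 and 1.003 at MII, against 49.9 and 5.47 at stage VI, a change of -1.76 (SE 0.46, adjusted p = 0.0715). Its value in set y at MII is the lowest of any member in any column, close to the smallest values the table lists.

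The others of the 8 differed in course. At PG90 mrpl41.L was at 0.99 and 1.06 of its stage VI level in sets x and y. mrpl41.L had 66.6 and 5.65 at MII, against 141 and 27.6 at stage VI, and mrpl14.L had 124 and 4.28 at MII, against 265 and 18.2 at stage VI, the same genes whose polysome shares were among the largest declines. mrpl53.L had 8.81 and 2.07 at MII, against 23.4 and 5.44 at stage VI. mrps18a.L had 319.7 and 22.8 at MII, against 694 and 49.1 at stage VI, and most of that difference was already present at PG90, at 433 and 27.9. mrpl10.S, mrpl14.L, mrpl53.L and mrps18a.L had adjusted p-values between 0.0501 and 0.0522 at MII in the fit used here. They passed with a pseudocount of 1 or with median-centred columns. Without the column set term, where no gene of the whole table passed, none of them did in limma, with an adjusted p of 0.99999 for each. Without the y column of MII their changes were -1.37, -1.15, -1.17 and -1.18.

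**Figure D3:**
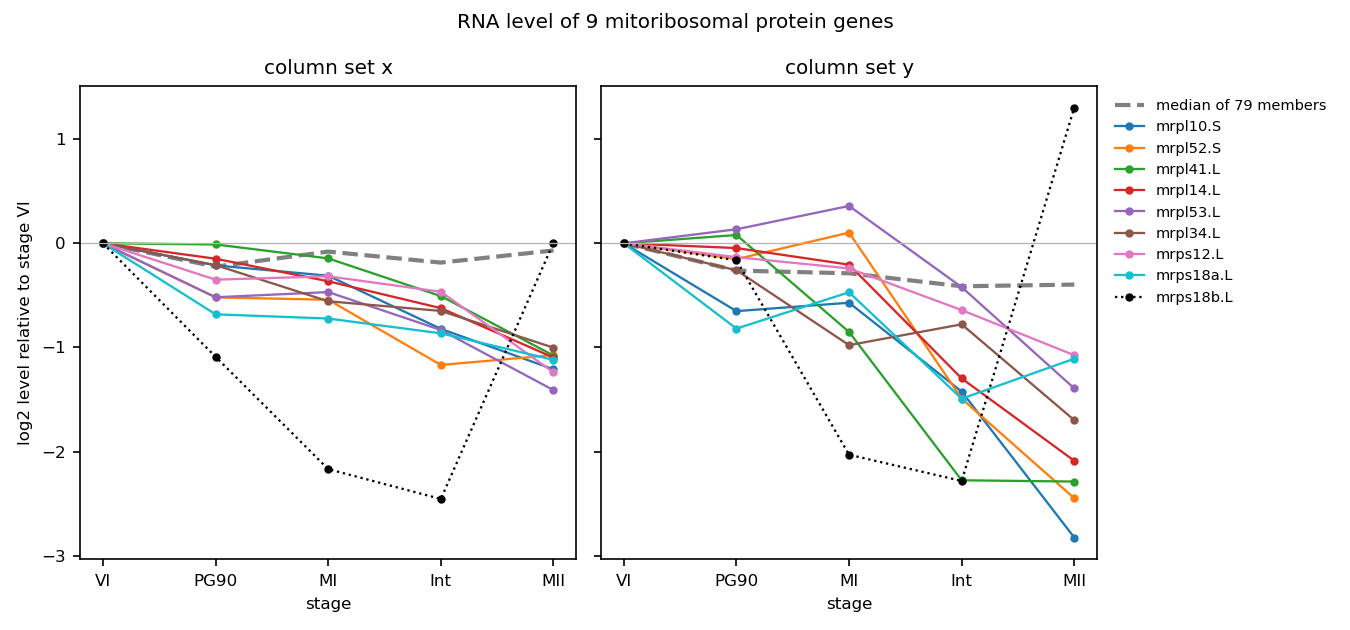
Log2 RNA level relative to stage VI (vertical) over the 5 stages in column set x (left) and y (right) for the 8 members at least 2-fold lower at MII in both sets, for mrps18b.L (dotted black) and for the median of the 79 members (dashed grey). All 8 end at least 2-fold lower in both panels, while mrps18b.L is low at MI and interkinesis and back at MII.

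The 3 mrps18 genes are paralogs whose products take different places in the mammalian mitoribosome: mrps18a in the large subunit, mrps18b and mrps18c in the small, of which mrps18c is the closest to the bacterial protein. Their levels took different courses. mrps18b.L had 176, 82.6, 39.1, 32.1 and 176 in set x and 15.2, 13.6, 3.72, 3.12 and 37.5 in set y. It was lowest at MI and interkinesis in both sets, with log2 changes of -2.10 (SE 0.35, adjusted p = 0.299) and -2.37 (SE 0.35, adjusted p = 0.121), and at MII it was at or above its stage VI level. mrps18c.S had 1008, 1358, 1267, 1054 and 1558 in set x and 84.5, 235, 233, 128 and 124 in set y, higher at each later stage in both, and more than 2-fold above stage VI in set y at PG90 and MI. mrps18b.L, with a change of 0.65 (SE 0.35, adjusted p = 0.251), mrps18c.S, with 0.59 (SE 0.34, adjusted p = 0.288), and mrpl40.S, with 0.57 (SE 0.19, adjusted p = 0.104), had the largest MII increases that both sets shared, and none passed the threshold.

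The following members did not pass the threshold either. mrpl35.L, with levels of 989 and 162 at MII, against 1118 and 146 at stage VI, differed by no more than 0.18 log2 units in either set. mrpl12.L, the stalk protein that contacts translation GTPases, had 36.7 and 7.17 at MII, against 33.5 and 6.52 at stage VI, a change of 0.13 (SE 0.15, adjusted p = 0.572). Levels of mrpl45.L, whose protein lies at the tunnel exit facing the inner membrane in mammals, were 4.38 and 2.52 at MII, against 6.32 and 1.69 at stage VI, in opposite directions. mrpl46.S had 5.84 and 2.70 at MII, against 9.45 and 2.78 at stage VI, and mrpl32.S had 8.66 and 2.02 at MII, against 2.73 and 4.95 at stage VI, with its sets again opposite. Outside the genes named so far, the MII estimates of mrps25.L, mrpl55.L and mrpl43.L were -1.62, -1.47 and -1.04, with most of the change in set y, and that of mrpl11.S was 1.11, also from set y, and none of the 4 passed the threshold.

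mrpl21.L and mrpl13.S varied between columns far more than other members. mrpl21.L had levels of 7393, 3205, 18561, 760.1 and 268 in set x and 14.1, 2862, 1607, 8.59 and 1018 in set y. Between stage VI and MII its column sets went opposite ways, and its MII change had an SE of 2.50. mrpl13.S had 305, 112, 237, 617 and 120.2 in set x and 4.998, 27.7, 1.07, 8.44 and 17.4 in set y, likewise opposite at MII. No direction can be given for either, and neither enters a count of members lower or higher in both sets at PG90 or MII. Both enter those counts at MI and interkinesis, mrpl21.L as higher and then lower, mrpl13.S as lower and then higher.

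Members with a polysome share had higher median levels than those without one, though the groups overlapped. Of the 79 members with a level, 25.3% had a polysome share, against 28.1% of all names with a level. At stage VI the 20 members with a share had a median level of 149 in set x and 22.7 in set y, and the 59 without one had 49.3 and 7.52. mrpl38.L, which had a share, lay below these last medians, with 15.3 and 6.04 at stage VI. Levels are not stated to be corrected for length.

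For those 20, the changes of share and of level at MII were set side by side. Both were lower for 9 members, 45.0%, against 27.6% of 3304 genes with both measures. A further 7 members were lower in share only, 2 in level only and 2 in neither, where the 3304 genes had 1615, 304 and 472. The count lower in both depends on how many were lower in each measure, and a link between the measures was not tested. Over the 20 members the Spearman correlation of the changes was 0.50 and the Pearson correlation 0.43, and over the 3304 genes these were 0.0017 and -0.028. Share and level come from the same libraries, and genes are not independent replicates, so these are descriptions. mrpl14.L and mrpl41.L were low in both, while mrps12.S had the largest share decline and a level of 50.5 and 4.65 at MII, against 56.2 and 8.04 at stage VI, and mrpl34.L the reverse, a lower level with shares of 0.364 and 0.284 at MII, against 0.470 and 0.306 at stage VI. The called decline of the mrps12 share thus belonged to the S copy and that of the mrps12 level to the L copy, for which no share was listed.

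**Figure D4:**
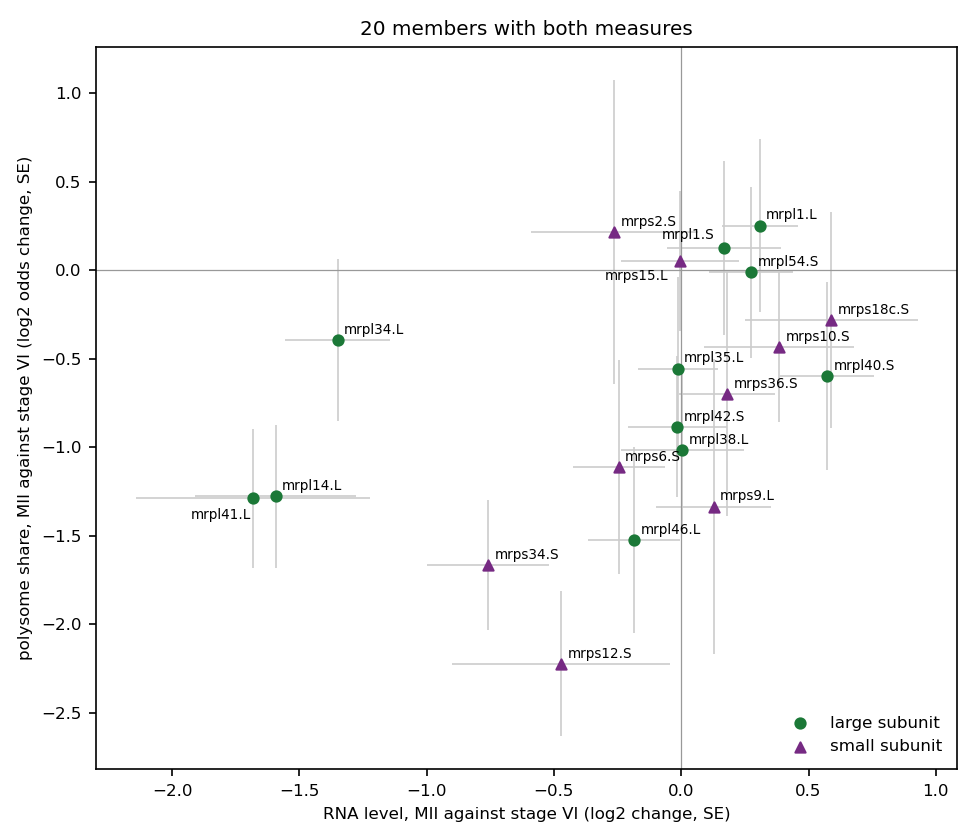
Change at MII against stage VI in RNA level (horizontal, log2) and in polysome share (vertical, log2 odds) for the 20 members with both measures; bars are standard errors from limma, green circles large-subunit and purple triangles small-subunit members. 9 members lie at the lower left, below 0 in both, with mrps12.S lowest in share and mrpl41.L and mrpl14.L low in both.

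Most mitoribosomal protein genes are annotated as a single homeolog. Of 74 such symbols with an L or S copy in the RefSeq annotation of assembly Xenopus_laevis_v10.1, 20 have both, 27.0%, against 53.9% of all 14469 symbols with either copy. Levels for both copies were listed for 15 symbols. In 11 of these 1 copy was higher in all 10 columns, the L copy in 7 and the S copy in 4. The mean log2 difference, L minus S, was -5.45 for mrps18c and 3.01 for mrpl1. These differences are between genes of possibly different length, which the level is not stated to correct for. At MII both copies were lower than at stage VI in 8 pairs, both higher in 2, and in opposite directions in 5. The same counts over all homeolog pairs are not given here, so these counts do not set the members apart.

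The poly(A) sites of the members in stage VI oocytes were compared with those of all genes. The 85 members had 189 sites with 2693 reads, with 4 to 199 reads per gene and a median of 21, where the median over all genes was 26. Several sites, 2 or more, were listed for 56 members, 65.9% (Wilson 95% interval 55.3 to 75.1%), against 64.5% of all genes. With only sites of at least 10 reads kept, 18 of 61 members had more than 1, 29.5% (19.6 to 41.9%), against 40.2% of all genes, so a large part of the multiple sites rests on few reads. Intervals on a percentage of members treat the genes as independent draws, and those on a gene's reads treat the reads so. These reads carry no molecular identifiers, so repeated reads of a molecule are not accounted for.

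Where a single site was used most, it was the most downstream in 34 of 54 members, 63.0%, against 55.8% of all genes. Among members with more than 1 site the most used one held a median of 63.6% of the reads, against 54.9% over all genes. With sites of at least 10 reads these medians were 58.7% and 57.6%, and the most used site was the most downstream in 15 of 17 members, 88.2%, against 59.0% of all genes. mrps26.L had the most reads, 199 at 4 sites, of which 143 lay at the most downstream one, 71.9% (65.2 to 77.6%). mrps25.S was divided, with 53 of its 119 reads at the most used site and 46 at a site upstream of it. mrps10.S and mrpl16.S had 94 reads each at 5 sites, with 41 and 51 at the most used one. mrps12.S had 14 of 18 reads at position 83950968 of chromosome 8S and 4 at a site 90 nt downstream, in a build the files do not name.

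**Figure D5:**
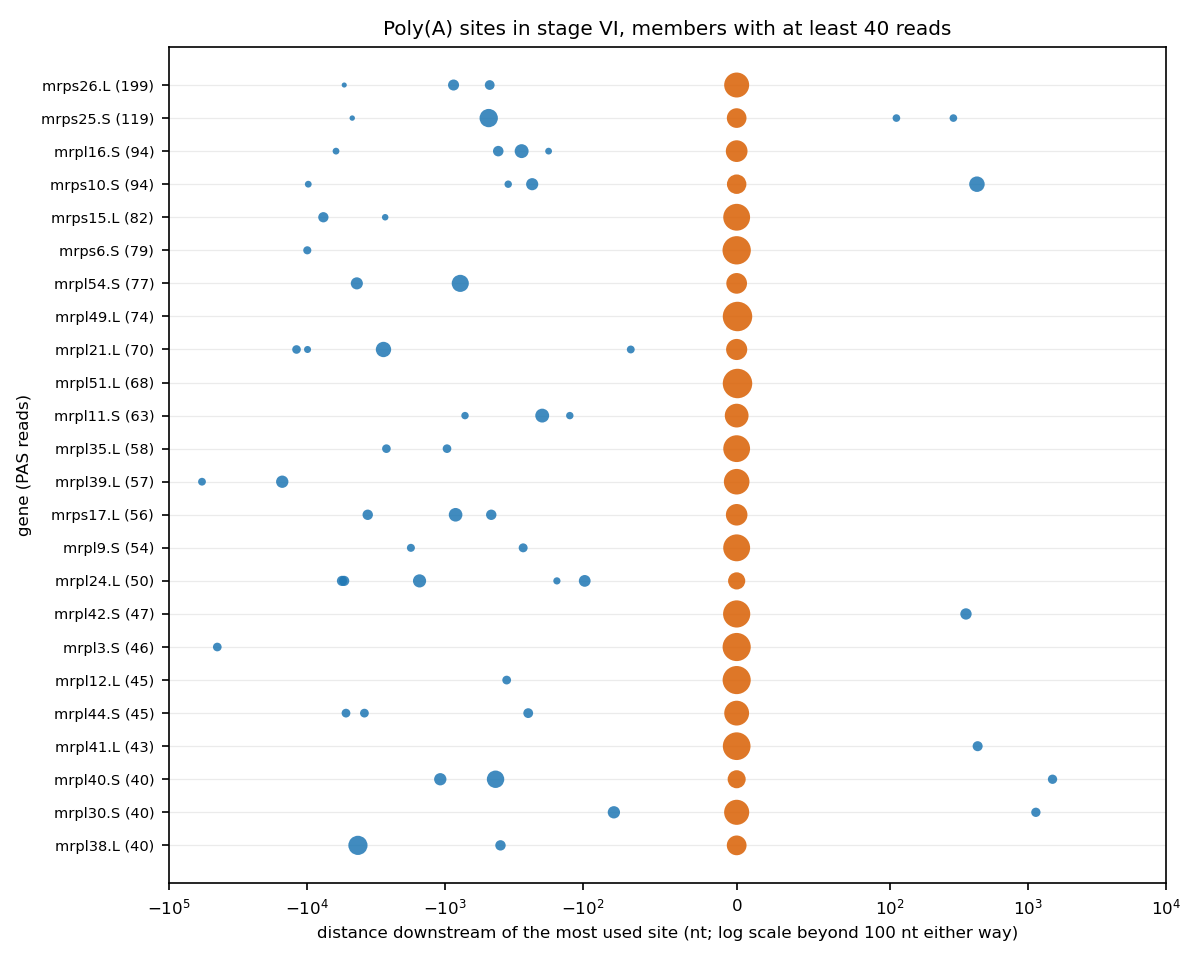
Poly(A) sites of the 24 members with at least 40 reads in stage VI oocytes, placed by distance in nucleotides downstream of the gene's most used site (orange, at 0), with a scale that is logarithmic beyond 100 nt on either side; the area of a point is its share of the gene's reads, and the reads per gene are in brackets. Most further sites lie upstream of the most used one.

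Sites of 1 gene spread over less than 1000 nt in 23 of the 56 members and over 1000 nt or more in 33. In 11 members the spread was 10000 nt or more, the widest being 57494 nt in mrpl39.L, where 43 of 57 reads lay at the most downstream site. Sites so far apart need not all belong to the last exon, and no annotation of the files' build was used here to place them.

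Lists of related genes, chosen with results of these data known, are given for comparison at MII. The respiratory chain genes had a median share change of -1.07 over 31 rows with 1 called lower, and a median level change of -0.81 over 116 rows with 3 called lower. Cytoplasmic ribosomal protein genes had -1.30 over 47 rows with 15 called lower, and a level change of -0.98 over 112 rows with 7 called lower. Both lists had more negative medians than the members' -0.65 and -0.25, a difference that was not tested. Of the factors acting in mitochondrial translation, 3 rows had a share, all lower at MII, and the initiation factor mtif3.L was called, with a change of -1.36 (adjusted p = 0.0454, limma). Of mitoribosome assembly factors, 3 rows had a share, all lower, with mterfd2.L called at -1.65 (adjusted p = 0.0446). Median level changes of these factors were not negative, at 0.45 over 5 translation factors, 0.37 over 3 mitochondrial tRNA synthetases, 0.026 over 6 assembly factors and 0.33 over 6 mitochondrial transcription and RNA factors, where only slirp.L was called, lower at -1.41 (adjusted p = 0.0475). Mitoribosomal proteins named otherwise than mrpl or mrps had 2 rows with a share and 5 with a level, and none was called.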

How the data were processed

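Members and gene lists were chosen with earlier results of these data known. Polysome shares are a fraction per gene and stage in 2 column sets, x and y, as deposited by the authors; RNA levels were deposited by the authors without a stated unit and were read as a score; PAS reads are a count per poly(A) site, deposited by the authors as 1 column for both lanes. All columns used were mapped. Bowtie, Bowtie2, TopHat2 and Cufflinks are named, without role or version, per the submitters' processing notes. The genome build, filters and scaling between fractions are not given in the sources used here.

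Share was fitted as log2 odds with stage as the only term (limma 3.58.1, R 4.3.3, residual degrees of freedom 5, prior 6.83). Level was fitted as log2 without pseudocount with stage and column set, since the sets differ in scale (residual 4, prior 2.39). Both used all 10 columns, all genes, and Benjamini-Hochberg adjustment per contrast with a threshold of 0.05. Of 12457 level rows, 178 repeated names were left out. The fits were also run on simulated data, with an outcome that is not given here. The simulated share columns were independent, without the correlation of same-suffix columns reported below, so that run does not bear on it. Genes were named by rule: those called, the 5 largest share falls at MII among members with both columns below both at stage VI, the 3 largest level changes each way among members that moved alike in both sets, the extremes of share, level and PAS reads, and homeolog pairs with shares. Others were chosen after their values were seen: mrps9.L, mrps2.S, mrps10.S, mrps36.S, mrpl11.S, mrpl12.L, mrpl13.S, mrpl38.L, mrpl39.L, mrpl43.L, mrpl55.L, mrps25.L and the further members at least 2-fold lower at MII. RefSeq matched 86 of the 88 names.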

Additional observations from a re-analysis of the deposited data

How the results depend on the processing

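Member calls at MII depended on the setting. For polysome share 2 members were called, against 0 with quantile normalization, 1 with median-centred columns, 4 with only the columns of the 2 stages, and 0 to 1 with a column left out. The columns share a suffix but no replicate number: deviations of same-suffix columns correlated at 0.173 to 0.451 for share and 0.655 to 0.738 for level, a hint from the data and not from the design. With the replicate block of column set, 6 members and 1654 of all genes were called for share, where the fit without it called 284. With only the columns of the 2 stages, 353 of 6497 genes were called. With the replicate block mrpl46.L, mrpl41.L and mrpl14.L passed in limma, with adjusted p-values of 0.0186, 0.0272 and 0.0280. Quantile normalization called 54 genes, median-centring 127 and leaving out a column 0 to 106. For level 229 genes were called, against 0 with no replicate block, 593 with a pseudocount of 1, 587 with median-centring, 663 of 5075 with the filter, and 0 to 47 with a column left out. For level, 2 members were called, against 0 with no replicate block, 6 with a pseudocount of 1, 6 with median-centred columns, 5 of 35 with a filter on low levels, and 0 to 4 with a column left out. Of all genes called for share 12.7% were higher, and 84.3% with median-centred columns; for level these were 31.4% and 44.8%. The median share change of the members moved at PG90 to 0.0088 (quantile normalization) and 0.065 (median-centred), and at MII to -0.42 and -0.11. Leaving out a column gave -0.19 to 0.0026 for PG90, -0.58 to 0.31 for MI, -0.39 to 0.21 for interkinesis, and -1.10 to -0.48 for MII. The median level change then lay between -0.40 and -0.17 at PG90 and between -0.39 and -0.11 at interkinesis, -0.30 and -0.050 at MI, and -0.34 and -0.12 at MII. The filter on low levels kept 35 members, of which 19 were lower and 1 higher in both sets at PG90, 18 lower at interkinesis, and 5 at least 2-fold lower at MII. Median-centring gave 14 members higher in both sets at interkinesis. Sites of at least 10 reads left 18 members with more than 1 site. The 5 share and 12 level changes of members named for their MII change kept their sign in every alternative run. These members were chosen for columns or column sets that moved alike, so the kept sign was largely fixed by the choice. The cause of these differences was not tested. Neither the depth nor the counting error of shares and levels can be given.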
